A study of Mus musculus with 6 samples.

Results

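The distal end of mouse chromosome 10, which carries Stat6, was examined for differences in open chromatin between Stat6 knockout (KO) and Stat6 wild-type (WT) T follicular helper (Tfh) cells. Its members were all listed ATAC-seq peaks of chromosome 10 that start between 117 Mb and 130 Mb in the genome build mm9, from about 10 Mb before Stat6 to the end of the chromosome. The rule used positions only and no measured value. It gave 2514 of the 282898 peaks of the series, and the 14785 other peaks of chromosome 10 served as the comparison. The first peak of the segment started at 117004120 and the last ended at 129980077.

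The study profiled 6 libraries of untreated C57BL/6 mice, 1 for each genotype in each of 3 sorted Tfh populations called Tfh21, Tfh214 and Tfh4. The WT groups carried the Stat6 WT genotype and the KO groups the Stat6 KO genotype, and nothing else differed between them by the labels. Populations were sorted with 10 mice per genotype, and each library was made from 50000 cells. The 3 populations of a genotype may therefore share mice, and tests over populations do not measure the spread between animals. ATAC-seq, which tags accessible DNA with sequencing adaptors by means of a transposase, ran at 37 °C for 30 min with paired 75 bp reads. The strain of the embryonic stem cells used to make the Stat6 allele, the part of Stat6 that was deleted, the number of backcrosses, the age of the mice and the tissue were not given in the sources used here. Each group was 1 library of pooled mice, so genotype and library cannot be told apart.

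Stat6 is the transcription factor that IL-4 and IL-13 receptors activate, and in T cells it drives the type 2 helper programme. A gene targeted in stem cells of 1 strain and bred onto another can keep donor DNA on both sides of the targeted site, because recombination near a selected locus is rare. Such a flank, often called a passenger segment, can hold sequence variants and active genes of its own, which is why the chromosome around a targeted gene is a usual place to look for differences that are linked to the allele rather than to the lost protein.

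The sequences of 4 promoters are shown because the results below turn on their genes: Stat6 itself, its neighbours Nab2 and Lrp1, and Cdk4, whose start-site peak had the lowest genotype effect among the stronger peaks of the segment. They are the 250 bases before the start site in RefSeq, build GRCm38.p6, whose coordinates cannot be set beside the mm9 positions of the peaks. Stat6 lies at chr10:127642736-127642985 on the plus strand, Nab2 at chr10:127666704-127666953 on the minus strand, Lrp1 at chr10:127621149-127621398 on the minus strand and Cdk4 at chr10:127063285-127063534 on the plus strand. Capitals mark the STAT motif TTCNNNGAA, the 1-base longer TTCNNNNGAA, which is the spacing Stat6 is known for, and the E box CACGTG.
Stat6: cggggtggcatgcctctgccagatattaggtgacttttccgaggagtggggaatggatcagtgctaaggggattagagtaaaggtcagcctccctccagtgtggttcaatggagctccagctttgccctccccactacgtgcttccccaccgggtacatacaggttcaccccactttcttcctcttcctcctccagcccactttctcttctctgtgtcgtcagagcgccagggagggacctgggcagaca
Nab2: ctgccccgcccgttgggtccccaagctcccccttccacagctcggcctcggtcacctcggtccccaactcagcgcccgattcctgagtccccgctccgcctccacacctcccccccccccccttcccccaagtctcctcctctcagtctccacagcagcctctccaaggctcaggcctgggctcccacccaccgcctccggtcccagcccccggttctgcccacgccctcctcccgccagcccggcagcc
Lrp1: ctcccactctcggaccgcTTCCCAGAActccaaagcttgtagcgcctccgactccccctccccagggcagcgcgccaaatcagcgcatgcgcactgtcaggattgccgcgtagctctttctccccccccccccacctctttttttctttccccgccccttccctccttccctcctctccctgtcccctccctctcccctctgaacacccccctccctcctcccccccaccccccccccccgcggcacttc
Cdk4: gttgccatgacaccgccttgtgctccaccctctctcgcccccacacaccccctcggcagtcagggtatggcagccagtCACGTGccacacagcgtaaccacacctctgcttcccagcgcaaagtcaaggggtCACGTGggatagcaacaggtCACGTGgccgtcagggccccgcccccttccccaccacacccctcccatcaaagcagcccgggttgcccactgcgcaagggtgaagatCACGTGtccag
These letters show a short STAT motif in the Lrp1 promoter, 4 E boxes in that of Cdk4, and neither in those of Stat6 and Nab2. The microRNA gene Mirlet7i, which makes a member of the let-7 family and was chosen after its values were seen, also lies in the segment. Its mature RNAs, at chr10:122985698-122985719 and chr10:122985642-122985663 on the minus strand of GRCm38.p6, follow with the seed, bases 2 to 8, in capitals.
mmu-let-7i-5p: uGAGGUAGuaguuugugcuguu
mmu-let-7i-3p: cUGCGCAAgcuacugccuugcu

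The segment was a dense, mostly intergenic stretch with many genes. It held 193.4 peaks per Mb, against 126.4 on the rest of chromosome 10. In blocks of the segment's length, peak numbers mostly rose along chromosome 10. They went from 895 in the first block to 2387 in the block before the segment, which itself held 2514. Most autosomal blocks held fewer peaks, but the density was not particular to the segment. The block from 117 Mb on chromosome 8 held 2499 and that from 26 Mb on chromosome 17 held 2520. By the deposited annotation 1317 peaks of the segment (52.39%) were intergenic, 543 were intronic, 208 lay in 5' UTR exons and 171 in coding exons. Another 52 lay at transcript ends, 26 in 3' UTR exons and 197 at a transcription start site (TSS). The TSS peaks were 7.836% of the peaks and took 30.32% of the reads. Peaks were assigned to 167 genes. Most peaks were weak, as they were elsewhere: the median was 14 reads over the 6 libraries, the highest was 572, and 79 peaks (3.142%) averaged 20 or more reads per library, against 3.037% on the rest of the chromosome.

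Values are CPM, counts scaled to the library's reads in listed peaks, from which whole reads were recovered. Totals were 1122701 to 1373218 reads for WT and 798555 to 1238585 for KO, of which 7256 (KO Tfh214) to 11997 (WT Tfh4) lay in the segment. All 9 Tfh marker genes had start-site peaks, with 22.5 to 31.0 CPM per marker over the 6 libraries. Of 7 B cell markers 5 had any peak, and start-site signal was 0.104 to 0.577 CPM per marker. The peaks assigned to the B cell list summed to 113.1 to 152.5 CPM in WT and 100.8 to 121.9 in KO. The myeloid list, with peaks at 4 of 4 markers, summed to 47.97 to 49.88 CPM in WT and 36.15 to 50.86 in KO. Its start-site signal was 0.983 to 2.191 CPM per marker over the 6 libraries. By the same sum the Tfh list had 396.9 to 474.9 CPM in WT and 387.5 to 533.7 in KO. The start-site share of the segment's reads was higher in each KO library than in its WT partner, at 35.09% against 29.89% in Tfh21, 33.03% against 29.92% in Tfh214 and 28.38% against 27.48% in Tfh4. The same held on the rest of chromosome 10. There it was 33.89% against 29.0% in Tfh21, 33.03% against 28.87% in Tfh214 and 27.5% against 25.83% in Tfh4. The part of these marker levels and start-site shares in the results was not tested. The labels do not tie libraries to separate cultures or animals, intervals below cover counting error only, and any p-value measures the spread between these libraries.

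As a whole the segment was slightly more open in KO than in WT relative to the rest of chromosome 10, with a ratio of 1.015 to 1.032 in a population. In Tfh21 the segment took 14.47% of chromosome 10 reads in WT (Wilson 95% interval 14.21 to 14.73) and 14.84% in KO (14.57 to 15.12). In Tfh214 it took 14.52% (14.27 to 14.76) and 14.91% (14.59 to 15.22). In Tfh4 it took 14.64% (14.4 to 14.88) and 14.83% (14.58 to 15.08). All 3 KO shares lay above all 3 WT shares, and within each population the intervals overlapped. The mean share was 0.316 percentage points higher in KO, 14.86% against 14.54%. An exact two-sided permutation test within populations gave p = 0.25, the smallest value its 8 arrangements allow, with KO higher in 3 of 3 populations.

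Put as a ratio, KO reads over WT reads in the segment, divided by the same on the rest of chromosome 10, came to 1.030 in Tfh21 (exact 95% interval 0.999 to 1.062), 1.032 in Tfh214 (0.999 to 1.065) and 1.015 in Tfh4 (0.987 to 1.044). Library scaling cancels in this ratio. Pooled by the Mantel-Haenszel method it was 1.025 (1.007 to 1.043), and leaving out a population in turn gave 1.022 to 1.031. With peaks that averaged 20 or more reads it was 1.010 (0.979 to 1.042), and from 5 Mb before Stat6 to the chromosome end 1.009 (0.988 to 1.031), so both intervals held 1. At the 197 start-site peaks of the segment the pooled ratio was 1.005 (0.974 to 1.037), so no difference was detectable there at this depth. At the other peaks it was 1.031 (1.010 to 1.053). Removing the Stat6 peaks left 1.024.

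A shift of this size, in either direction, was common along the genome in these libraries. The autosomes were cut into 194 blocks of 13 Mb, the length of the segment, and each was set against the rest of its own chromosome. The interval of the pooled ratio left out 1 in 37.6% of them, above 1 in 16.5%, as in the segment, and below 1 in 21.1%. The ratios ran from 0.899 to 1.11, and the middle 50% of blocks lay between 0.982 and 1.015. The segment ranked 30 among the 194.

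**Figure D1:**
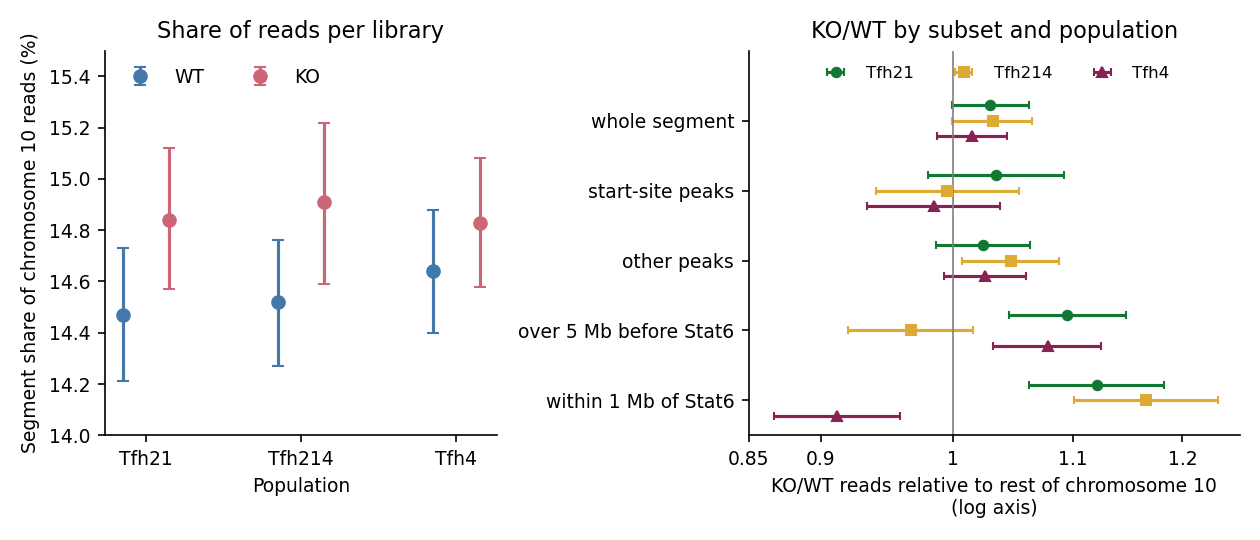
Left, percent of chromosome 10 reads that fell in the segment, per library, with Wilson 95% intervals. Right, KO/WT reads relative to the rest of chromosome 10 (log axis) for the whole segment and for subsets of it, per population, with exact 95% intervals. The 3 KO shares of 14.83% to 14.91% lie above the WT shares of 14.47% to 14.64%, and the ratios within 1 Mb of Stat6 lie above 1 in Tfh21 and Tfh214 and below 1 in Tfh4.

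Within 1 Mb of Stat6 the 3 populations went different ways. This stretch of 532 peaks, which holds Nab2, Lrp1, Ddit3, Gli1, Stat2 and Timeless, had a ratio of 1.121 in Tfh21 (1.062 to 1.183) and 1.166 in Tfh214 (1.101 to 1.234), and of 0.912 in Tfh4 (0.867 to 0.959). Neither of the first 2 intervals overlapped that of Tfh4. At the peaks outside start sites the ratios were 1.126, 1.251 and 0.901, and at start sites 1.024, 1.009 and 0.892. Pooled, the 3 populations gave 1.048 (1.017 to 1.081). The start-site peaks there gave 0.970 pooled (0.928 to 1.014), an interval that held 1. The other peaks gave 1.063 pooled (1.018 to 1.109).

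The stretch was crowded with start sites, and crowded stretches elsewhere had ratios of the same directions. It held 110 start-site peaks, which took 48.49% of its reads, where the median 2 Mb window of the autosomes held 12. Among the 118 windows of that width with at least 40 start-site peaks, a number chosen after the values were seen, the median ratio against the rest of the window's own chromosome was 1.038 in Tfh21, 1.077 in Tfh214 and 0.918 in Tfh4. The middle 50% of them ran from 1.009 to 1.072 in Tfh21, 1.024 to 1.125 in Tfh214 and 0.881 to 0.965 in Tfh4. The stretch around Stat6 lay above that range in Tfh21 and Tfh214 and within it in Tfh4. The measures are not alike: the stretch is centred on Stat6 and set against chromosome 10 outside the segment. It also held far more start-site peaks than 40. Within the 118, log2 ratio and start-site peaks correlated at r = -0.075 in Tfh21, 0.440 in Tfh214 and -0.425 in Tfh4. In Tfh4 the interval lay below 1 in 60.2% of these windows, against 16.6% of all 1103 windows. In Tfh21 it lay above 1 in 30.5% of them, against 14% of all, and in Tfh214 in 50.8%, against 10.6%. Over the 1103 windows the log2 ratio and the number of start-site peaks correlated at r = 0.370 in Tfh21, 0.472 in Tfh214 and -0.360 in Tfh4. The windows share the same 2 libraries in each case, so these are descriptions. An interval above 1 in Tfh21 and Tfh214 together with one below 1 in Tfh4 was found in 14 of the 118 crowded windows (11.86%) and in 19 of all 1103 (1.72%).

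**Figure D2:**
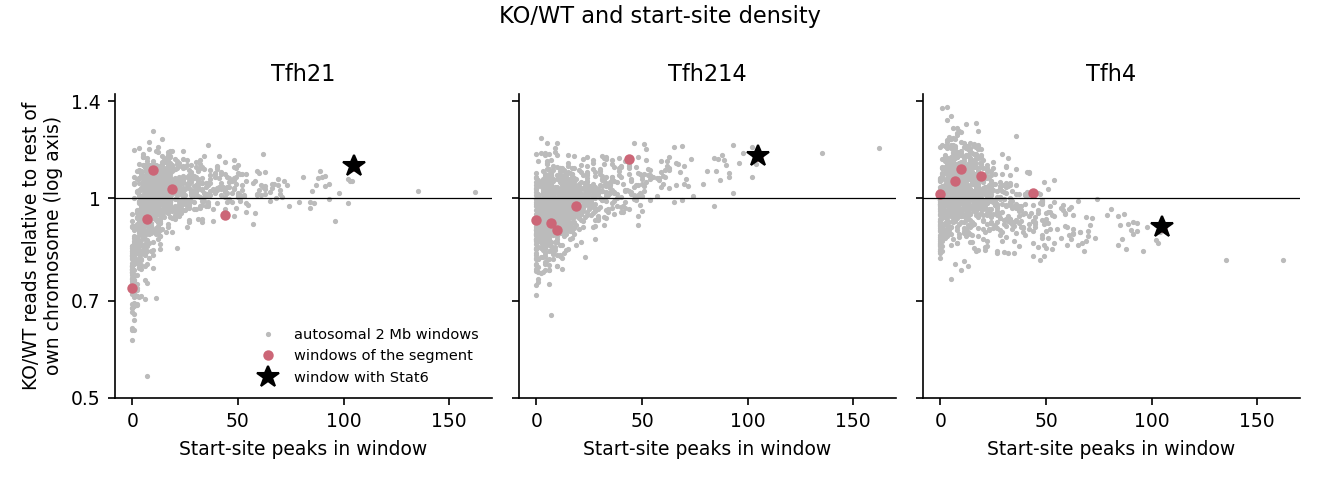
KO/WT reads of 2 Mb windows of the autosomes relative to the rest of their own chromosome (log axis), against the number of start-site peaks in the window, per population. Gray dots are the 1103 windows, red dots those of the segment and the star the window that holds Stat6; windows with many start-site peaks sit mostly above 1 in Tfh214 and below 1 in Tfh4.

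The part of the segment more than 5 Mb before Stat6 had a higher ratio than the remainder in Tfh21 and Tfh4. In Tfh214 its ratio was lower. More than 5 Mb before Stat6 the ratio was 1.095 in Tfh21 (1.045 to 1.147), 0.967 in Tfh214 (0.920 to 1.016) and 1.078 in Tfh4 (1.032 to 1.125). From there to the end of the chromosome, which takes in Stat6 and its surroundings, it was 0.990, 1.075 and 0.979 in the same order. In 1 Mb windows with the populations summed, 2 of the 13 windows of the segment had an interval above 1 and 3 below 1, which is 38.46% of them. On the whole of chromosome 10 it was 38.6% of 127 windows. The segment's windows ran from 0.881 to 1.073 and those on the rest of the chromosome from 0.670 to 1.171.

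The higher windows were the one from 117 Mb, which holds Mdm2 and Ifng and had a ratio of 1.071 (1.020 to 1.125), and the one from 127 Mb, which holds Stat6 and had 1.073 (1.029 to 1.118). The window from 117 Mb was above 1 in each population, at 1.170 in Tfh21, 1.026 in Tfh214 and 1.028 in Tfh4. The window from 127 Mb was not: it had 1.202, 1.196 and 0.889. The lower windows were adjacent, from 123, 124 and 125 Mb, with 0.913 (0.845 to 0.986), 0.881 (0.814 to 0.953) and 0.914 (0.836 to 0.998). These were low in Tfh21, with 0.796, 0.738 and 0.738, and lay between 0.931 and 1.046 in the other populations. With start-site peaks alone no window of the segment had an interval that left out 1, on either side.

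**Figure D3:**
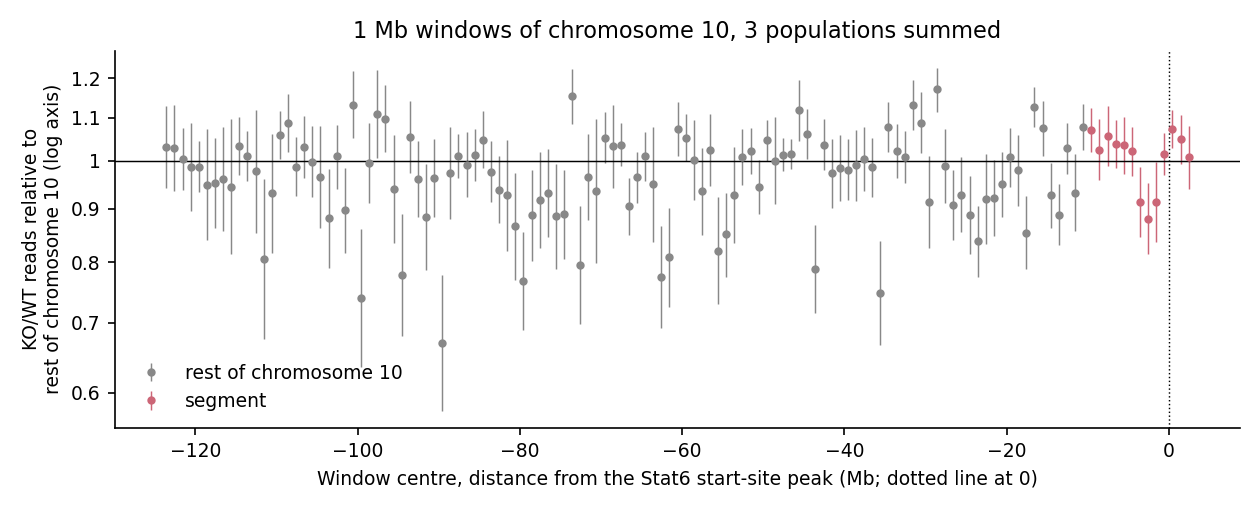
KO/WT reads in 1 Mb windows of chromosome 10 relative to chromosome 10 outside the segment (log axis), 3 populations summed, with exact 95% intervals, by distance from the Stat6 start-site peak. The windows of the segment, in red, run from 0.881 to 1.073, inside the range of 0.670 to 1.171 of the gray windows.

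At single peaks no genotype effect in the segment passed the test. In limma on log2(CPM + 1), with genotype and population as additive terms, 79 segment peaks were tested and 0 were called at an adjusted p under 0.05, where 0.857% of the 8986 peaks tested were called. At an unadjusted p under 0.05 the segment had 22 higher and 1 lower peaks (29.1%), against 24.1% on the rest of chromosome 10 and 21% of all peaks. edgeR, which rescales the libraries, also called 0 and had 3 segment peaks at an unadjusted p under 0.05. DESeq2 called 0 and had 0. Over all peaks they called 0.0111% and 0%. The median genotype effect was 0.24 (log2) over the segment's peaks, 0.20 over those on the rest of chromosome 10 and 0.19 over all. With median-of-ratios scaling these medians were 0.05, 0.02 and 0.00, a drop of 0.18 for every pooled log2 ratio. Changes below stand on the deposited scale unless stated.

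The peak nearest the threshold lay in intron 4 of Srgap1, a GTPase-activating protein of Slit-Robo signalling, at 121323677 to 121324199. In the order Tfh21, Tfh214, Tfh4, which is kept below, its levels were 13.4, 18.9 and 13.8 CPM in WT and 23.8, 26.3 and 30.7 CPM in KO. All 3 KO libraries lay above all 3 WT libraries. The genotype effect was 0.78 ± 0.22 (log2, SE) with a limma adjusted p of 0.0619. Without the Tfh214 pair it was 0.94 ± 0.26 with a limma adjusted p of 0.0226, and an intergenic peak at 117609551 also passed there, with 0.82 ± 0.23 and an adjusted p of 0.0302. In the fit of all libraries its limma adjusted p was 0.193. Without the Tfh214 pair 2.85% of all peaks were called, so 2 of 79 is near the background. The total of Srgap1 went the opposite way. Summed over its 51 peaks the gene had 128.2 to 134.5 CPM in WT and 118.0 to 124.0 in KO.

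The lowest effect among the 79 belonged to the start-site peak of Cdk4, the cyclin D kinase that takes cells through G1, at 126500266 to 126501009. Its levels were 41.9, 48.0 and 37.1 CPM in the WT libraries and 30.4, 33.8 and 33.9 CPM in the KO libraries. Every KO library was lower than every WT library. The effect was -0.36 ± 0.15 (log2, SE) with a limma adjusted p of 0.18, so it did not pass. Mettl1, a tRNA methyltransferase gene near Cdk4, also had all 3 KO libraries below all 3 WT libraries, with a gene ratio of 0.704 (0.477 to 1.03). The start-site peak of Nup107, a subunit of the nuclear pore, followed with -0.30 ± 0.19 and a limma adjusted p of 0.344. Its KO Tfh4 library held 16.2 CPM, where the other 5 libraries held 29.9 to 35.1.

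Set against the median of all peaks in each population, 16 of the 79 stronger segment peaks (20.25%) were above it in all 3 and 5 (6.329%) below it in all 3. Over all peaks the shares were 12.4% and 12.3%. Among peaks with 20 reads in the higher library of a pair, few in the segment were 2-fold apart. In Tfh21 it was 1 higher and 0 lower of 89 peaks, against 1.66% and 0.0781% of all. In Tfh214 it was 1 higher and 0 lower of 98, against 0.487% and 0.696%. In Tfh4 it was 4 higher and 2 lower of 94 (4.26% and 2.13%), against 2.14% and 0.717%. On the rest of chromosome 10 the shares were 2.02% and 0% in Tfh21, 0.198% and 0.595% in Tfh214, and 4.31% and 0.588% in Tfh4.

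No peak was 2-fold apart in more than 1 population in the same direction. The Tfh21 peak lay in intron 6 of Nab2, with 10 WT and 21 KO reads. The Tfh214 peak lay in a 5' UTR exon of Gli1, an effector of hedgehog signalling, with 15 WT and 21 KO reads. That Gli1 peak was also the lowest in Tfh4, with 21 WT and 5 KO reads, so its direction turned between populations. The other lower peak in Tfh4 was the Nup107 start site. The higher peaks in Tfh4 were the Srgap1 intron, the start and end of Tbc1d30, which encodes a GTPase-activating protein for Rab proteins, and an intergenic peak at 118224329.

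**Figure D4:**
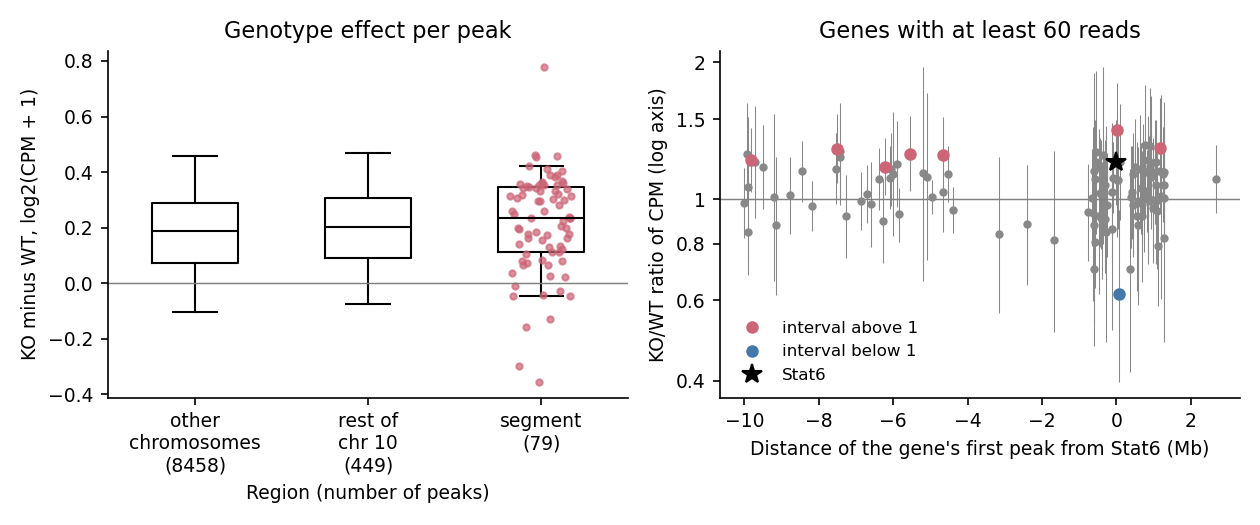
Left, genotype effect per peak from limma, KO minus WT in log2(CPM + 1), for peaks that averaged 20 or more reads. Boxes give the median and quartiles, whiskers the 5th and 95th percentiles, and dots the 79 segment peaks. Right, KO/WT ratio of CPM (log axis) for the 112 segment genes with at least 60 reads, 3 populations summed, with exact 95% intervals, by distance from Stat6. The Srgap1 intron peak stands highest at 0.78 on the left, and Nab2 (1.42) and Myo1a (0.619) mark the ends of the range on the right.

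Summed over the populations, 128 segment peaks held at least 60 reads, and the KO/WT ratio of CPM had an interval above 1 at 11 (8.59%) and below 1 at 0. Over all 14089 such peaks the shares were 9.85% and 0.185%. With median-of-ratios scaling 1 was above (0.781%) and 2 below (1.56%), against 1.02% and 1.09% of all. The 5 highest of the 11 were the Srgap1 intron with 1.77 (1.25 to 2.51), the start site of Tbc1d30 with 1.63 (1.12 to 2.39), a 5' UTR exon of Msrb3, a methionine sulfoxide reductase, with 1.39 (1.06 to 1.82), the start site of Tmbim4 with 1.35 (1.01 to 1.81) and that of Mdm1 with 1.33 (1.03 to 1.73). Choosing peaks by size inflates these values, and some peaks with fewer reads had ratios as high with intervals that held 1. Of the 11 peaks, 10 lay more than 5 Mb before Stat6, where they were 20% of 50 peaks, and 1 lay nearer, where it was 1.28% of 78. That split was chosen after the values were seen. With median-of-ratios scaling 1 of the 50 lay above 1 (2%) and 1 below. Of the 78, 0 then lay above and 1 below (1.28%), so the contrast in these counts was not kept. The scaling moves every pooled ratio by the same factor, so the contrast in the ratios stayed. The median ratio of the 50 and the 78 was 1.225 and 1.113 on the deposited scale, and 1.078 and 0.980 after scaling. The nearer peak of the 11 was the start site of Mirlet7i, with 57.0, 59.0 and 49.5 CPM in WT and 73.3, 63.9 and 70.2 CPM in KO, a ratio of 1.27 (1.04 to 1.54).

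The clearest absence of signal was at an intergenic peak 8.57 Mb before Stat6. The peak, at 118511154 to 118511836, held 4, 10 and 6 reads in the WT libraries (3.56, 7.86 and 4.37 CPM) and 0 reads in each KO library. Every WT library had reads there and no KO library did. A count of 0 allows up to 3 reads over the KO group, against which the WT level was 5.46-fold higher as a point value. The exact interval of the ratio of CPM, which also covers the counting error of the WT reads, ran up to 0.247. Among the 917 peaks of the series with at least 10 WT reads and no KO read it had the most WT reads. The next, on chromosome 16, had 18. The peak is described because it was the most extreme, which inflates its fold and narrows its interval, and it was not tested. Every listed peak held at least 10 reads in all, so a peak without KO reads is listed through its WT reads alone. Whether a peak has reads in 1 genotype alone was asked because sequence that is missing or cannot be aligned in a genotype would leave none.

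Peaks with at least 10 reads in WT and 0 in KO numbered 10 in the segment, which is 0.398% of its peaks, against 0.331% on the rest of chromosome 10 and 0.324% of all. The reverse was found at 0 segment peaks and 0.0166% of all. WT libraries were deeper, with 3767674 reads against 3088260 in KO. Those with the most reads after the first were an intergenic peak at 118787552, a peak in exon 11 of Lrig3, a membrane protein, and one in intron 1 of Rdh9, a retinol dehydrogenase, each with 12 WT reads, and an intergenic peak at 123445065 and one in intron 3 of Rdh5, another retinol dehydrogenase, with 11 each.

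The surroundings of the peak without KO reads still had KO signal. The nearest listed peaks, 7.94 kb to the left and 5.79 kb to the right, held 19 KO and 19 WT reads and 8 KO and 11 WT reads. The other 20 peaks within 50 kb together had 126 KO and 173 WT reads, a ratio of CPM of 0.889 (0.701 to 1.12). Its window of 0.1 Mb, from 118.5 to 118.6 Mb, had a ratio of 0.645 (0.517 to 0.801) relative to the rest of chromosome 10, and 0.702 (0.561 to 0.875) without the peak itself. Of the 130 such windows of the segment 8 had an interval below 1 and 9 above 1, against 10.8% and 5.32% on chromosome 10. The nearest start-site peaks belonged to Dyrk2, a kinase, 205.3 kb away, and Cand1, an exchange factor of cullin ubiquitin ligases, 165.6 kb away. The start-site peak of Cand1 was higher in each KO library than in its WT partner, with 72.2, 62.1 and 53.2 CPM in WT and 92.3, 81.4 and 67.0 CPM in KO.

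**Figure D5:**
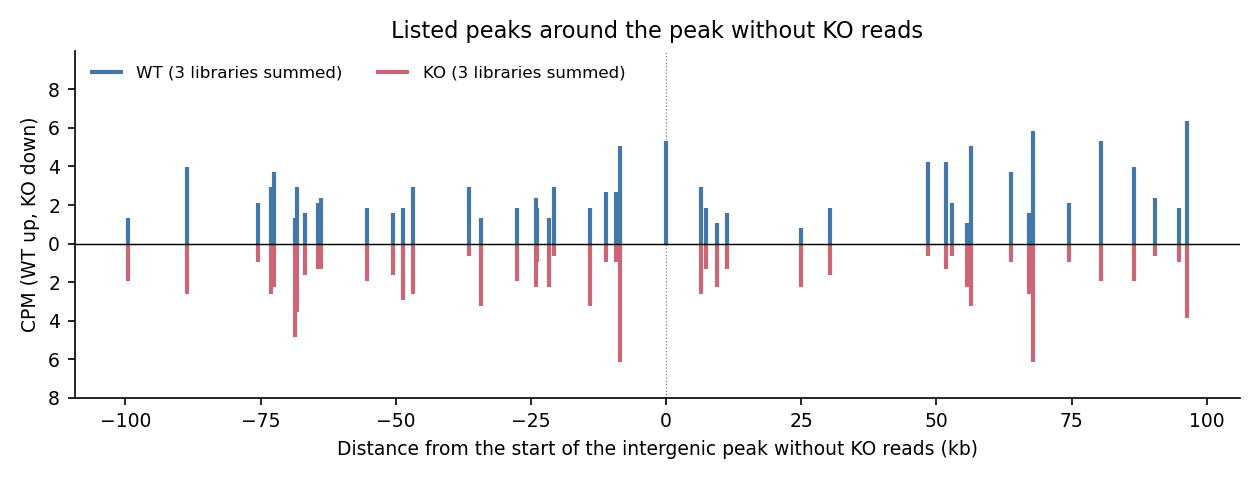
CPM of every listed peak within 100 kb of the intergenic peak that had no KO reads, 3 libraries of a genotype summed, WT upwards and KO downwards, by distance from that peak. The peak at 0 has 5.31 CPM in WT and none in KO, while the peaks beside it have signal in WT and KO alike.

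Stat6 itself kept open chromatin in KO. Its main start-site peak, at 127078949 to 127079659, had 16.0, 20.4 and 17.5 CPM in WT and 21.9, 31.3 and 22.6 CPM in KO. On the deposited scale every KO library was higher than every WT library at this peak. The genotype effect was 0.46 ± 0.21 (log2, SE) with a limma adjusted p of 0.208, and 0.28 with median-of-ratios scaling. The 6 listed peaks of Stat6 held 178 WT and 176 KO reads, a ratio of CPM of 1.21 (0.974 to 1.49). The main peak had a ratio of 1.36 (0.970 to 1.92), and the others ran from 0.813 to 1.46. The interval held 1 at each of them, the main peak included. The only listed peak within the body of the gene past the first exons, in coding exon 18, had 6 WT and 4 KO reads. A peak at the promoter reads no protein and does not check the knockout.

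Of the 18 genes with peaks within 0.25 Mb of Stat6, 10 held at least 60 reads. Nab2, next to Stat6 and a corepressor of EGR transcription factors, was the one with an interval above 1, and Myo1a, a myosin of the intestinal brush border, the one below. Nab2 had 38.3, 38.5 and 34.2 CPM in WT and 67.6, 60.1 and 34.7 CPM in KO. The KO values were higher in Tfh21 and Tfh214 and level with WT in Tfh4. Its ratio was 1.42 (1.13 to 1.80), or 1.25 (0.992 to 1.58) with median-of-ratios scaling.

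Myo1a had 10.7, 19.7 and 21.9 CPM in WT and 10.5, 6.26 and 14.5 CPM in KO, with overlap between the groups. Its ratio was 0.619 (0.397 to 0.949), and its strongest peak, in intron 21, had 0.305. Over all genes with 60 reads the interval lay above 1 at 7% and below 1 at 4.84%.

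The other genes of this neighbourhood had ratios on both sides of 1, with intervals that held 1 unless stated. Lrp1, an endocytic receptor with 31 peaks, had 1.12, Nemp1 of the nuclear envelope 1.10, the transcript 1700012D01Rik, whose peaks overlap those of Nab2, 1.10, and the zinc finger gene Zbtb39 1.21. R3hdm2 had 0.972 in all, although its strongest peak had 0.152 with an interval below 1. Nxph4, a neurexophilin, had 1.04 and Stac3, which acts in muscle excitation, 0.863. The others held too few reads for a ratio to mean much: Ndufa4l2, Shmt2, Tac2, Gpr182, Rdh1, Rdh18-ps and Rdh16f2 had 10 to 25 reads each. Rdh9 had 30 reads, 23 in WT and 7 in KO, with a ratio of 0.371 (0.135 to 0.894). The neighbourhood's median was 1.10 on the deposited scale and 0.971 with median-of-ratios scaling, so its direction turned with the scaling.

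Over the whole segment 112 genes held at least 60 reads. The interval lay above 1 at 7 (6.25%) and below 1 at 1 (0.893%). With median-of-ratios scaling it lay above at 0 and below at 11 (9.82%), where it lay above at 0.362% and below at 15.6% of all genes. The 7 were Nab2, Irak3, Rassf3, Rap1b, Tmem5, Mirlet7i and Ormdl2, of which the last 4 were named after their values were seen. The 3 KO libraries lay above the 3 WT libraries at 7 genes and below them at 3, Cdk4, Mettl1 and Srgap1, against 7.82% and 4.12% of all genes. The median ratio was 1.06 over the segment's genes, 1.03 over those on the rest of chromosome 10 and 1.04 over all.

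Of 13 cytokine and immune genes, 10 held at least 60 reads, and 2 of these had an interval above 1 and 0 below, where 7% and 4.84% of all genes did. Their median ratio was 1.12, or 0.983 with median-of-ratios scaling, where 0 were above and 0 below. Besides Nab2 the interval lay above 1 at Irak3, a brake on Toll-like receptor signalling, with 65.0, 82.6 and 53.9 CPM in WT, 86.6, 82.7 and 88.8 CPM in KO and a ratio of 1.29 (1.08 to 1.54), or 1.14 (0.955 to 1.36) with median-of-ratios scaling. The groups did not overlap, but KO Tfh214 and WT Tfh214 were almost level. Usp15, a deubiquitinase, had 1.14 (0.989 to 1.31) and Tbk1, a kinase of the interferon response, 1.12 (0.951 to 1.31). Stat2, which carries type I interferon signals, had 1.17 (0.890 to 1.53).

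The cytokine genes themselves had little signal. Ifng, the type 1 helper cytokine, held 97 reads in 5 peaks, with 7.28 to 18.1 CPM in WT and 11.3 to 16.2 in KO and a ratio of 1.01 (0.663 to 1.54). Il22 held 21 reads and Iltifb, its near-identical neighbour, 15, so reads could be split between the copies. Il23a, a subunit of IL-23, held 10 reads, with 2.67, 2.36 and 2.19 CPM in WT and 0, 1.25 and 0 CPM in KO. Among regulators of T cells, Ikzf4 had a ratio of 0.997 (0.727 to 1.37) and Dgka, a diacylglycerol kinase that dampens T cell receptor signals, 0.943 (0.702 to 1.26).

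Of 15 cell cycle, growth and p53 genes, 14 held at least 60 reads. The interval lay above 1 at 1, Rassf3, a RAS-association protein, with 1.18 (1.02 to 1.36), and below 1 at 0, again beside 7% and 4.84% of all genes. With median-of-ratios scaling Rassf3 had 1.04 (0.899 to 1.20). Rassf3 had 119.4, 93.6 and 101.2 CPM in WT and 129.4, 115.2 and 121.9 CPM in KO, higher in each pair but with overlapping groups. The median was 1.08, and 0.953 with median-of-ratios scaling, where 0 were above and 2, Cdk4 and Hmga2, below, beside 15.6% of all genes below. Lemd3, of the inner nuclear membrane, had 1.03 (0.889 to 1.19) and Cand1 1.15 (0.987 to 1.35). Mdm2, the ubiquitin ligase that restrains p53, had 1.26 (0.975 to 1.63), with 36.5, 28.3 and 32.8 CPM in WT and 46.6, 42.6 and 34.7 CPM in KO. Cdk2 and Timeless, of DNA replication, had 0.995 and 0.993. Ddit3, a factor of the unfolded protein response, had 1.09.

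Of 15 genes with widely used promoters 14 held at least 60 reads, and the interval held 1 at all 14. Their median was 1.10, or 0.966 with median-of-ratios scaling. Esyt1, a tether between membranes, had 1.16 (0.970 to 1.38), Xpot, the tRNA exporter, 1.16 (0.969 to 1.40), and Cs, the citrate synthase, 0.975 (0.797 to 1.19). The ribosomal protein genes lay at the ends of the list, Rpl41 with 1.31 (0.979 to 1.76) and Rps26 with 0.958 (0.746 to 1.23). The 16 olfactory receptor genes, which lymphocytes do not use, held 288 reads in 20 peaks. None reached 60 reads, and together they had a ratio of 1.004 (0.790 to 1.27).

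Promoter sequence was compared for the 124 of 167 genes that matched the RefSeq promoter table by symbol, with 144 promoters. The motifs read the same on both strands except the GC box, which was sought on each, and a promoter can hold more than 1. TTCNNNGAA was found in 9 (6.25%) and TTCNNNNGAA in 7 (4.861%), against 7.02% and 5.854% of the 32851 promoters in the table. CACGTG was found in 12 (8.333%), against 6.021%, and the GC box GGGCGG in 62 (43.06%), against 32.74%. Start-site peaks of the 11 genes with either STAT motif had a summed ratio of CPM of 1.06 (0.959 to 1.18), and those of the 85 genes with neither had 1.12 (1.09 to 1.16). The intervals overlapped. Both ratios stand on the deposited scale, and median-of-ratios scaling multiplies each by 0.880. Relative to the rest of chromosome 10, all start-site peaks of the segment had 1.005 (0.974 to 1.037), so 1.12 shows no gain particular to these genes.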

How the data were processed

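ATAC-seq was measured in 6 libraries, 1 per genotype and population. The authors deposited 1 table of peaks with a CPM value per library, scaled to the reads in the listed peaks, per the file headers and the values. Bowtie 1.3.0, MACS2 2.0, HOMER and mm9 stand in the submitters' processing notes without roles. Peak pooling, duplicate removal and the shift of cut positions were not given in the sources used here.

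Whole reads were recovered from the deposited CPM: at most 3 values in a library were more than 0.02 reads off, and at least 99.9989% were whole. Totals of 798555 to 1373218 reads set the precision. Segment and window ratios are conditional odds ratios of reads with exact 95% intervals, pooled by Mantel-Haenszel. Ratios of single peaks and genes carry exact binomial intervals. limma 3.58.1 was fitted to log2(CPM + 1) with a variance trend over peaks that averaged 20 or more reads. It left 2 residual degrees of freedom, p-values were adjusted by Benjamini-Hochberg over all peaks tested, and the fit was tested on simulated data. edgeR 4.0.16 with TMM and DESeq2 1.42.0 were alternatives (R 4.3.3, Python 3.11.15, scipy 1.17.1).

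The members, gene lists, trend and minimum were chosen with earlier results of these data known. Named were Stat6, genes within 0.25 Mb of it, the lists, called peaks and windows, the extreme peaks with at least 60 reads, peaks with reads in 1 genotype and 2-fold peaks. Genes are the symbols the deposited table pairs with peaks. Coordinates are mm9, counted as deposited. No mm9 genome was used here, so no peak sequence is shown.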

Additional observations from a re-analysis of the deposited data

Results flagged for a closer look

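Within 1 Mb of Stat6 the KO/WT reads relative to the rest of chromosome 10 were 1.121 in Tfh21, 1.166 in Tfh214 and 0.912 in Tfh4. The values are listed because the only pair of libraries moved up in 2 populations and down in the third. The difference between the populations was not tested, since each genotype has 1 library per population.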

How the results depend on the processing

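The limits are these: 1 library per group, weak peaks with a median of 14 reads, and intervals that cover counting error only. The libraries of a population were paired in the permutation test, the pooled ratio and the model; the groups carry no replicate numbers that could pair them further. The cause of the changes below was not tested. With start-site peaks only, the segment ratio was 0.995 in Tfh214, 0.985 in Tfh4 and 1.005 pooled, so the pooled interval then held 1. With peaks of at least 20 reads on average it was 0.982 in Tfh4 and 1.010 (0.979 to 1.042) pooled, and against all other autosomes 1.061 in Tfh4. From 5 Mb before Stat6 it was 0.990 in Tfh21, 1.075 in Tfh214 and 0.979 in Tfh4, with 1.009 (0.988 to 1.031) pooled, and before that point, an alternative added after seeing the data, 1.095, 0.967, 1.078 and 1.050 pooled. Within 1 Mb of Stat6 it was 1.121, 1.166, 0.912 and 1.048 pooled. There, also added, start-site peaks gave 0.892 in Tfh4 and a pooled value of 0.970 (0.928 to 1.014), whose interval held 1. Other peaks gave 1.126, 1.251, 0.901 and 1.063 pooled. Windows of 0.5 Mb gave 4 higher and 2 lower, and windows of 2 Mb gave 1 higher and 1 lower. Windows of 0.1 Mb, added later, gave 9 higher and 8 lower. These were 23.08%, 33.33% and 13.08% of the segment's windows, against 33.46%, 42.19% and 16.12% on chromosome 10. Start-site peaks gave 0 windows of 1 Mb on either side, against 4.854% on chromosome 10. Other peaks gave 2 higher and 1 lower (23.08%, against 33.07%). Counts of 2-fold peaks with a minimum of 10 reads were 11 higher and 7 lower of 169 in Tfh21. These are 6.51% and 4.14%, against 6.19% and 4.88% of all peaks. In Tfh214 the counts were 6 and 12 of 167 (3.59% and 7.19%, against 2.4% and 10.7%). In Tfh4 the counts were 23 and 25 of 219 (10.5% and 11.4%, against 8.94% and 12.8%). With a pseudocount of 5 CPM they were 0 higher in Tfh21, 0 higher in Tfh214, and 2 higher and 1 lower in Tfh4. With median-of-ratios scaling they were 0 higher in Tfh21, 0 higher and 1 lower in Tfh214, and 2 higher in Tfh4. Peaks without KO reads numbered 4 at a minimum of 12 WT reads (0.159%, against 0.0778% of all). At 20, added later, the number was 1 (0.0398%, against 0.000353%). Genes with an interval above 1 numbered 0 and below 1 numbered 11 (9.82%) with median-of-ratios scaling, against 0.362% and 15.6% of all genes. By the strongest peak only, 2 genes lay below. limma called 2 segment peaks of 79 without the Tfh214 libraries, where 2.85% of all peaks were called. Of 58 named genes, median-of-ratios scaling took 5 across the limit of their interval (Cdk4 and Hmga2 came to lie below 1, Nab2, Irak3 and Rassf3 no longer lay above it) and moved 17 to the other side of 1. With the strongest peak only, 6 changed call and 7 changed side.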
